A study of Mus musculus with 2 samples.

Results

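The interferon-stimulated effector genes are the genes whose products carry out much of the antiviral response that interferon sets off. The set was a list of 41 genes, and each was found on the array by the transcript accessions of non-control probes. Named probes were found for 39 of the 41 genes, among 17176 genes named on the array, through 56 probes with 1 spot each. No probe was named for Dtx3l or Mx2, and these genes are not analysed here. The study measured total RNA of helper T cells, which carry CD4, and of cytotoxic T cells, which carry CD8, both sorted from splenocytes of wild-type C57B6 mice with no treatment named in the labels. With 1 one-colour Agilent array for each cell type, there was no replicate and no test between the cell types. What the sources used here do not give is the age and number of the mice and the sort markers. In RNA of a whole sorted population, fewer expressing cells and less RNA per cell cannot be told apart.

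Type I interferons bind the receptor chains Ifnar1 and Ifnar2, and the kinases Jak1 and Tyk2 then activate transcription factors that join Irf9 and bind the interferon-stimulated response element (ISRE) in target promoters. Interferon gamma acts through Ifngr1, Ifngr2, Jak1 and Jak2 and leads to binding at the gamma-activated site (GAS). The target genes encode sensors of foreign nucleic acid, blockers of viral translation, entry and release, and regulators of the signal itself. T cells hold a basal level of many of these genes without infection, and interferon gamma is a product of T cells themselves.

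Promoter stretches were set out for Ifit2, Ifit3, Ifit1, Oas3, Gbp2, Ifitm2 and Ifitm1, which have relatives or neighbours in the set. Isg15 was added as a well known ISRE promoter. RefSeq (build GRCm38.p6) gave promoter windows, from 250 bases before to 50 bases after the gene start, for 32 of the 41 genes. Oas2, the neighbour of Oas3, was among those without a window, so its promoter could not be shown. The ISRE core was searched on both strands as GAAA, any 2 bases, GAAA (on the other strand TTTC, any 2 bases, TTTC), and the GAS as the palindrome TTCNNNGAA. The ISRE core was found for 18 of those 32 genes (56.2%), and for 3.99% of the 27025 genes with windows. By window these shares were 47.4% of 38 and 3.44% of 32851. The GAS pattern was found for 10 of the 32 genes (31.2%), against 9.55% of all genes with windows. ISRE matches overlapped one another in Isg15, Bst2, Gbp3, Irgm1, Oas1a and Trim21, and a GAS match overlapped an ISRE match in Bst2 and Ifitm3. The 160 bases before the start are given 5′ to 3′ along the gene, with ISRE core matches in capitals. For Ifit2, which has more than 1 start in the table, the stretch before the first start is given, and no window of Ifit2 held the core.
Isg15, chr4:156200819-156200978, minus strand: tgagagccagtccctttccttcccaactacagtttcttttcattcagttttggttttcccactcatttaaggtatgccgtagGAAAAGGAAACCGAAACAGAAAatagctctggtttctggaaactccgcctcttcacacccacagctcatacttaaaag
Ifit2, chr19:34550534-34550693, plus strand: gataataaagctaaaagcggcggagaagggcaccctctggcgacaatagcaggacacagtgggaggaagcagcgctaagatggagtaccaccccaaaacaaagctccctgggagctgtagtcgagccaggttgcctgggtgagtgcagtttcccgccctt
Ifit3, chr19:34583369-34583528, plus strand: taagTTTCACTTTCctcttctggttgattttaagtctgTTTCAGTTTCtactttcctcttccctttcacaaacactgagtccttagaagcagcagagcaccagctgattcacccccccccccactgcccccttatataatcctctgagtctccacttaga
Ifit1, chr19:34640729-34640888, plus strand: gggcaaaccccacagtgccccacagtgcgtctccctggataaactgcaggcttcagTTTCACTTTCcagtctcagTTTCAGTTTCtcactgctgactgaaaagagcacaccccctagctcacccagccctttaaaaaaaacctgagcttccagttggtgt
Oas3, chr5:120777660-120777819, minus strand: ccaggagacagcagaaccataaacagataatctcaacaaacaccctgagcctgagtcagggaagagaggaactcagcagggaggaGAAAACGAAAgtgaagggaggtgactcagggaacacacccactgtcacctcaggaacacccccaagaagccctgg
Gbp2, chr3:142620503-142620662, plus strand: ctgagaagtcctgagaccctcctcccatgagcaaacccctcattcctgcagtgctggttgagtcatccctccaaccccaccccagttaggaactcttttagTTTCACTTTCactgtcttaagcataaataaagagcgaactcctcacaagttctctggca
Ifitm2, chr7:140955962-140956121, minus strand: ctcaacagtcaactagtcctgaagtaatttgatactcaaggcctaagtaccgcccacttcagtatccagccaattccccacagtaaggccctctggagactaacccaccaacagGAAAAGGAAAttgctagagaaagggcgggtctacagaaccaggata
Ifitm1, chr7:140967916-140968075, plus strand: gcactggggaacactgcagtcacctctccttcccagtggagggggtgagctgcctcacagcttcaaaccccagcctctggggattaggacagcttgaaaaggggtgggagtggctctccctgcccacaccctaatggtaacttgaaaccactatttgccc
Isg15 held 3 overlapping cores, the first beginning 78 bases before the start. Ifit1 held 2 cores at 104 and 85 bases and Ifit3 held 2 at 156 and 122 bases before the start. Oas3, Gbp2 and Ifitm2 held 1 each, at 75, 59 and 46 bases. The windows of Ifit2 and Ifitm1 held none. A match describes letters and is neither a binding site nor a cause, and no match says only that these letters are not in the window. The median log2 difference between the arrays was 0.00 over the 18 genes with the core and 0.05 over the 13 measured genes whose windows lacked it. It was -0.29 over the 10 genes with the GAS pattern and 0.07 over the 21 measured genes without it.

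The arrays carried 43379 non-control spots, of which 63.1% (helper cells) and 58.6% (cytotoxic cells) were well above background by the scanner software's flag. The labels were checked with Cd8a, which had a processed signal of 535 in helper cells and 49982 in cytotoxic cells, and with Cd4, which had 307 and 67.1. No probe was matched to Cd8b1. The T cell genes Cd3d, Cd3e, Cd3g, Cd247, Lck, Cd2 and Cd5 were above background on both arrays. Markers of other cell types were also measured on both arrays and differed between them. By the probe used, all 7 B cell markers were higher on the CD8+ array. Their summed processed signal was 9582 in helper cells and 13173 in cytotoxic cells. Cr2 had a log2 difference (CD8+ minus CD4+) of 0.33 by that probe and -0.35 at its second probe. Ms4a1, at 0.12, was nearest to 0. All 5 plasma cell markers were higher on the CD4+ array, with sums of 3763 and 2228. Such sums add signals of different probes before any scaling between the arrays. The brightest probes lead them, and they are not amounts of cells.

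Differences are given as the log2 level on the CD8+ array minus that on the CD4+ array, after each array was scaled to its 75th percentile, so a negative value is a higher level on the CD4+ array. Processed signals are given before that scaling, helper cells first, while folds are taken after it. All 39 measured genes were well above background on both arrays through the probe used, none was saturated, and none of their spots was marked as an outlier. The 39 genes had a median difference of 0.03 (quartiles -0.30 and 0.21). By sign alone, 22 were higher on the CD8+ array and 17 on the CD4+ array, with Ddx58 at 0.00 among the 17. Over all 11957 named genes above background on both arrays the median was 0.02 and the quartiles were -0.18 and 0.20. By sign, 6422 of all these genes were higher on the CD8+ array and 5535 on the CD4+ array. Within 1 SD of the probe spread of 0 lay 46.2% of the members and 56.9% of all genes. That spread is technical, since no replicate exists. Probes of 1 gene gave differences with an SD of 0.23 over 3925 genes, and of 0.16 over the 10 members with several probes above background. The scanner software's own error for the differences of members lay between 0.20 and 0.24.

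**Figure D1:**
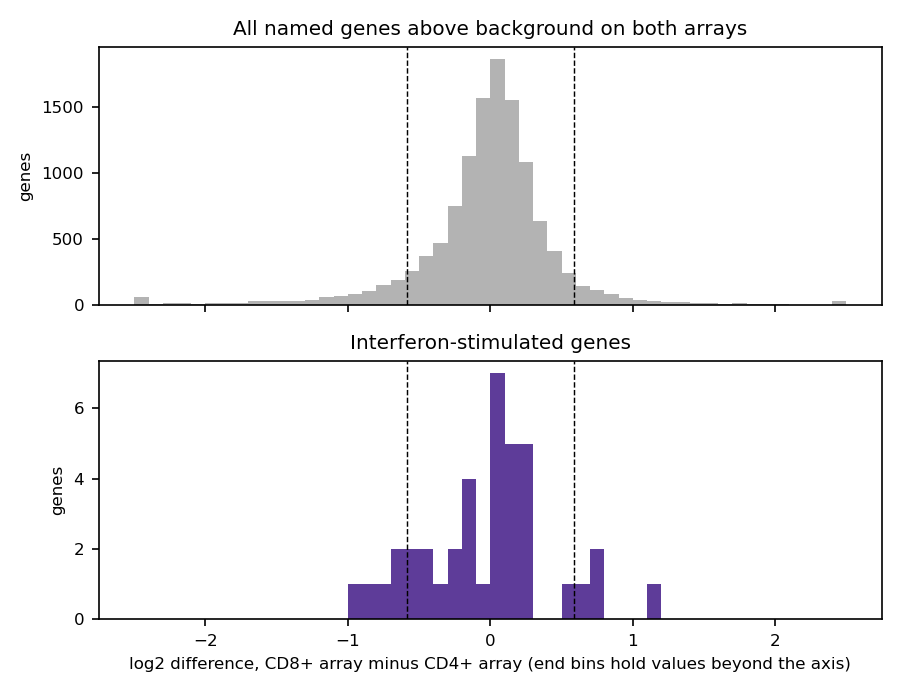
Number of genes by log2 difference (CD8+ array minus CD4+ array) in bins of equal width (the end bins hold values beyond the axis), for all 11957 named genes above background on both arrays (top) and for the 39 interferon-stimulated genes (bottom), with dashed lines at 1.5-fold. Both distributions centre near 0, and the interferon-stimulated genes run from -0.91 to 1.13.

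Of the 39 genes, only Oas3 was at least 2-fold apart (2.56%, against 5.77% of all genes). It was higher in the cytotoxic cells, as 1.94% of all genes were, and none of the 39 was 2-fold higher in the helper cells, where 3.83% of all genes were. At 1.5-fold, 10 genes passed (25.6%, against 14.0% of all genes). Ifit3, Oas3, Parp12 and Gbp2 were higher on the CD8+ array, and Ifit2, Oas2, Ifitm1, Ifitm2, Ifitm3 and Ifi44 on the CD4+ array. The share higher on the CD8+ array was 10.3%, against 5.50% of all genes, and the share higher on the CD4+ array was 15.4%, against 8.54%. Dim genes varied more. All genes were ranked by mean signal and divided evenly into dim, middle and bright. Among the dim genes 23.4% were 1.5-fold apart, and 4 of the 6 members there were (Ifitm1, Ifitm2, Oas3 and Parp12). Among the middle genes the figures were 13.0% and 5 of 19 members, and among the bright genes 5.77% and 1 of 14 members, Gbp2.

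**Figure D2:**
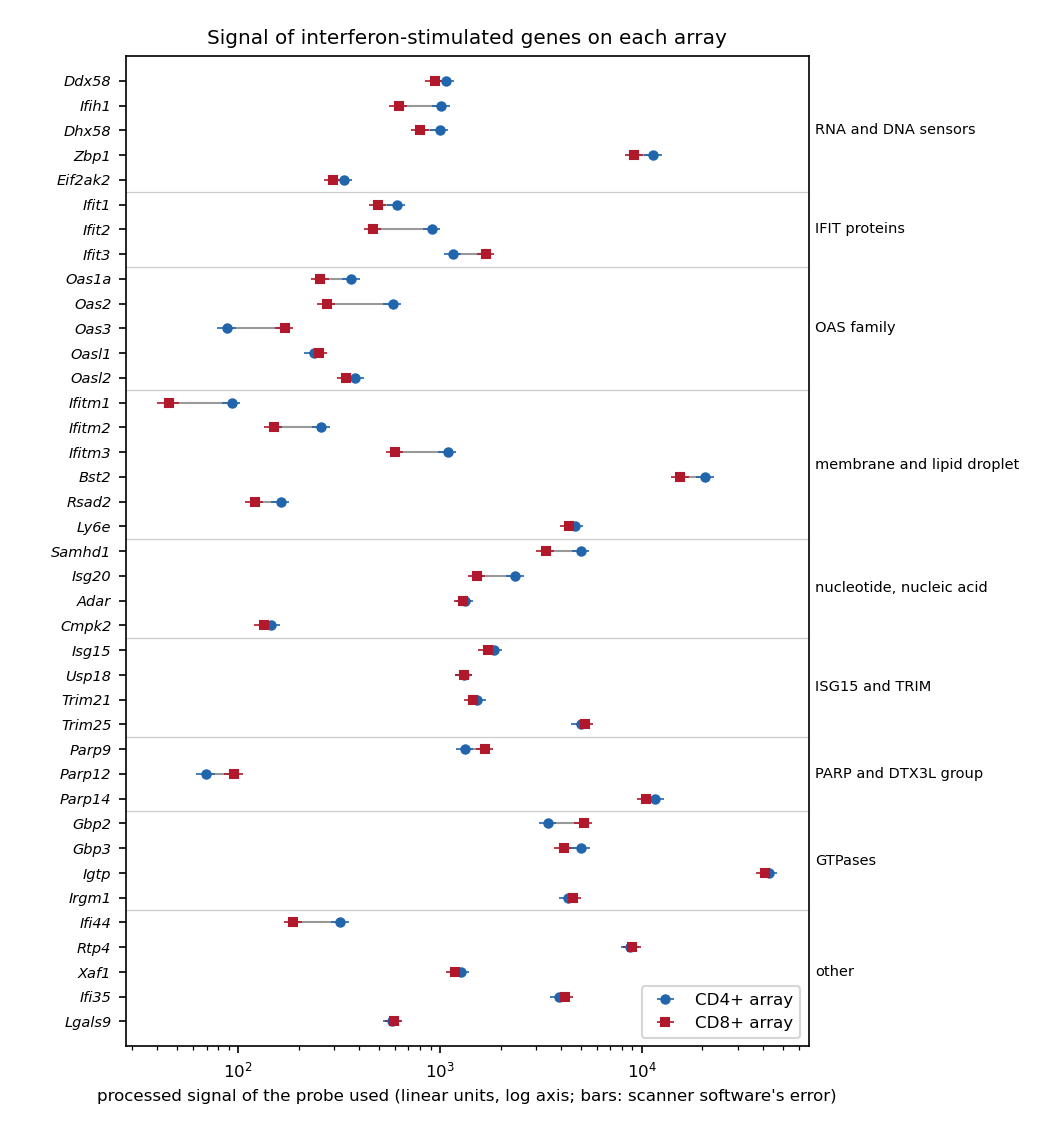
Processed signal of the probe used for each of the 39 genes on the CD4+ array (circles) and the CD8+ array (squares), on a log axis, with bars for the scanner software's error, before scaling between arrays. Signals of different genes come from different probes and are not comparable, and within a gene the widest gaps are those of Oas2, Oas3, Ifitm1 and Ifit2.

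Among the sensors of foreign nucleic acid, no gene reached 1.5-fold by the probe used. By sign alone, 4 of the 5 were lower on the CD8+ array, and this number ran from 2 to 5 over the alternatives. Among the 4 was Ddx58, whose difference rounded to 0.00, so no direction can be read for it. Ifih1 (MDA5), a helicase that detects long double-stranded RNA, had a processed signal of 1018 in helper cells and 626 in cytotoxic cells, a difference of -0.53 or 1.44-fold. Its dimmer probe, above background on the CD4+ array alone, had -0.84, and the mean of its probes was -0.68, past 1.5-fold. Ddx58 (RIG-I), a helicase that detects the ends of viral RNA, had signals of 1069.6 and 944 and a difference of 0.00, and its other probes had -0.07, 0.07 and 0.22. Of the 5 sensors Ddx58 was nearest to 0 and Ifih1 farthest from it. Dhx58 (LGP2), a regulator of both helicases, had signals of 998 and 800.1 and a difference of -0.14. Zbp1, a sensor of Z-form nucleic acid, also had -0.14, and Eif2ak2 (PKR), a kinase that halts translation on double-stranded RNA, had signals of 334 and 297 and a difference of 0.01. The group median was -0.14, and lay between -0.18 and 0.00 over the alternatives run.

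The IFIT proteins, which bind viral RNA and block its translation, did not lie on 1 side. Ifit2 had a processed signal of 913 in helper cells and 466 in cytotoxic cells, 1.74-fold higher in the helper cells (difference -0.80). Its second probe had signals of 103 and 56.7 and a difference of -0.69. Ifit3 went the other way, with signals of 1164 in helper cells and 1692 in cytotoxic cells, 1.64-fold higher in the cytotoxic cells (difference 0.72). Ifit1 lay between them, with 611 and 495 and a difference of -0.13. The differences of Ifit2 and Ifit3 exceeded the probe SD of 0.23 and stayed past 1.5-fold in every setting run. Ifit3 has a near-identical copy, Ifit3b, near it in the genome, and its single probe may measure both.

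The oligoadenylate synthetase (OAS) family includes enzymes that make the signal that activates RNase L. Oas2 had a processed signal of 585 in helper cells and 275 in cytotoxic cells, a difference of -0.91 or 1.88-fold. Oas3 had 88.4 and 171, a difference of 1.13 or 2.19-fold in the other direction. In the reported processing these 2 relatives held the lowest and the highest difference of the 39 genes. With normexp and from the series values Ifit2 was lower than Oas2 (-0.76 and -0.80), and with the mean over probes Gbp2 (0.76) was above Oas3 (0.74). Each rested on 1 probe, since the second probe of each was not above background on either array. Oas1a had signals of 364 and 256 and a difference of -0.33, and Oasl1 had 0.26. Oasl2 had signals of 381 and 344 and a difference of 0.03. With normexp background correction Oas2 had -0.66 and Oas3 0.73, and from the series values Oas3 had 0.88, under 2-fold in both. Oas2 turned to 0.05 when its dim probe was averaged in.

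Among the membrane and lipid-droplet restriction factors, 5 of 6 were higher on the CD4+ array, with a group median of -0.43. The interferon-induced transmembrane proteins, which hinder the fusion of viruses with the cell, lay together. Ifitm1 had a processed signal of 93.1 in helper cells and 45.5 in cytotoxic cells (difference -0.86, 1.81-fold). Ifitm2 had 259 and 150.2 (difference -0.61, 1.53-fold), and its dimmer probe had 95.6 and 72.5 and a difference of -0.22. Ifitm3 had 1094 and 600.3 (difference -0.69, 1.61-fold). All 3 were higher in the helper cells by the probe used, and all stayed negative under every alternative run. The size depended on the processing for Ifitm1, which had -0.28 with normexp and -0.42 from the series values, and for Ifitm2, which had -0.42 as the mean of its probes, -0.47 with scaling to the array median, -0.55 with quantile and -0.58 with loess normalization. Ifitm3 was under 1.5-fold with scaling to the median alone (-0.55). Bst2 (tetherin), which holds budding virus at the cell surface, had signals of 20694 and 15528 and a difference of -0.24. Rsad2 (viperin), an enzyme of lipid droplets that makes a chain-terminating nucleotide, had -0.26, with -0.33 and -0.11 at its other probes. Ly6e, a membrane-anchored factor that acts on viral entry, had signals of 4656 and 4379.6 and a difference of 0.09, and was nearest to 0.

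Most markers of myeloid and dendritic cells lay in the same direction as the transmembrane genes. Of the 6 monocyte and macrophage markers with a named probe, 5 were higher on the CD4+ array, with a median of -0.21. Their unscaled sums were 31159.8 and 23736 in helper and cytotoxic cells, led by Vcam1 with 14916 and 12283. The sums in this paragraph likewise depend on the brightest probes and are not amounts of cells. Lyz2, a lysozyme of myeloid cells, had -2.17, while the macrophage receptor Csf1r had 0.05. Of the 4 measured conventional dendritic cell markers, 3 were higher on the CD4+ array, with sums of 2657 and 1011. The dendritic cell lectin Cd209a had -3.21 and Itgax had -1.31, while Xcr1 had 0.35 and, at its second probe, 3.03. Of the 5 plasmacytoid dendritic cell markers, 4 were higher on the CD4+ array, among them Siglech at -2.65. Bst2, also among the 4, is itself one of the interferon-stimulated genes and no separate marker of direction here. It held 20694 and 15528 of the list's sums of 22525 and 19665. Ccr9 went the other way, with 2.65 and signals of 698 and 3879.7. Of the 5 NK cell markers, 3 were higher on the CD4+ array, Ncr1 at -2.14, Klrb1c at -2.34 and Tyrobp at -1.17, while Eomes had 3.33. The sums over the list were 10827 and 5145, of which Tyrobp held 10166 and 3997. Of the erythroid markers, Hba-a1 had -0.30 and Alas2 0.03. Neutrophil markers had a median of 0.08 and sums of 1263 and 1308, with Ngp not above background on the CD8+ array. Platelet markers were higher on the CD8+ array, with sums of 233 and 339 and Itga2b not above background on the CD4+ array. No probe was named for Clec9a, Zbtb46, Cd68, Ly6g or Hbb-b1. The part of these cells in the differences of the interferon-stimulated genes was not tested.

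Among enzymes of nucleotides and nucleic acids, Isg20 and Samhd1 were the lower ones on the CD8+ array. Isg20, an exonuclease of single-stranded RNA, had signals of 2367 in helper cells and 1527 in cytotoxic cells (difference -0.46), with -0.56 at its second probe. Samhd1, which depletes the nucleotide pool needed for reverse transcription, had 5004 and 3348 (difference -0.40). Both differences exceeded the probe SD of 0.23 and stayed under 1.5-fold. Adar, the enzyme that edits adenosine in double-stranded RNA, had signals of 1335 and 1302 and a difference of 0.14, with 0.00 at its second probe. Cmpk2, a mitochondrial nucleotide kinase, had signals of 146 and 134 and a difference of 0.05, with -0.04 at its second probe.

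The ISG15 and TRIM ubiquitin genes lay close to 0. Isg15, a ubiquitin-like protein that is attached to other proteins, had signals of 1856 and 1728 and a difference of 0.07. Usp18, the protease that removes ISG15 and damps the interferon receptor, had 1317 and 1314 and a difference of 0.17. Trim21, an antibody-binding ubiquitin ligase, had 0.10. Trim25, a ligase of the RIG-I pathway, had signals of 4981 and 5239.8 and a difference of 0.25, with 0.45 at its second probe. All 4 were on the CD8+ side in every setting run, yet the group median of 0.14 was under the probe SD and lay between 0.02 and 0.28 over the settings.

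The ADP-ribosyltransferases were on the CD8+ side by the probes used. Parp12, a zinc finger protein of stress granules and the Golgi, had signals of 69.6 in helper cells and 95.8 in cytotoxic cells. It was 1.56-fold higher in the cytotoxic cells (difference 0.64). With normexp it had 0.52 and from the series values 0.54, both under 1.5-fold. Parp9, which works in a complex with Dtx3l, had 1331 and 1674, a difference of 0.51 or 1.42-fold. Parp14, a regulator of Stat6 signalling, had 11703 and 10487 and a difference of 0.02, while its other probes had -0.25 and 0.34. The probes of Parp14 spanned 0.59, the widest range among members with several probes above background, so no direction can be read for it.

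Among the interferon-inducible GTPases, which attack the vacuoles of intracellular pathogens, Gbp2 stood apart. Gbp2 had a processed signal of 3430.0 in helper cells and 5155 in cytotoxic cells, 1.70-fold higher in the cytotoxic cells (difference 0.76). It had 0.52 both with normexp and from the series values, under 1.5-fold. Its relative Gbp3 had 5017 and 4106 and a difference of -0.11, the nearest to 0. Igtp (Irgm3) had 0.12, and Irgm1 had 0.25 and 0.20 at its probes.

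Of the remaining interferon-induced proteins, Ifi44, a cytoplasmic protein of the antiviral state, had signals of 322 in helper cells and 188 in cytotoxic cells. It was 1.51-fold higher in the helper cells (difference -0.60), but had -0.32 with normexp and -0.36 from the series values. With scaling to the array median it had -0.46, with quantile normalization -0.56 and with loess -0.58, all under 1.5-fold. The other 4 lay on the CD8+ side by less than 1.5-fold. Ifi35, a partner of Nmi, had signals of 3903 and 4161 and a difference of 0.27. Rtp4, a chaperone-like protein, had 0.21 and Lgals9, the lectin galectin-9, had 0.20. Xaf1, an inhibitor of XIAP, had signals of 1269 and 1196 and a difference of 0.09.

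**Figure D3:**
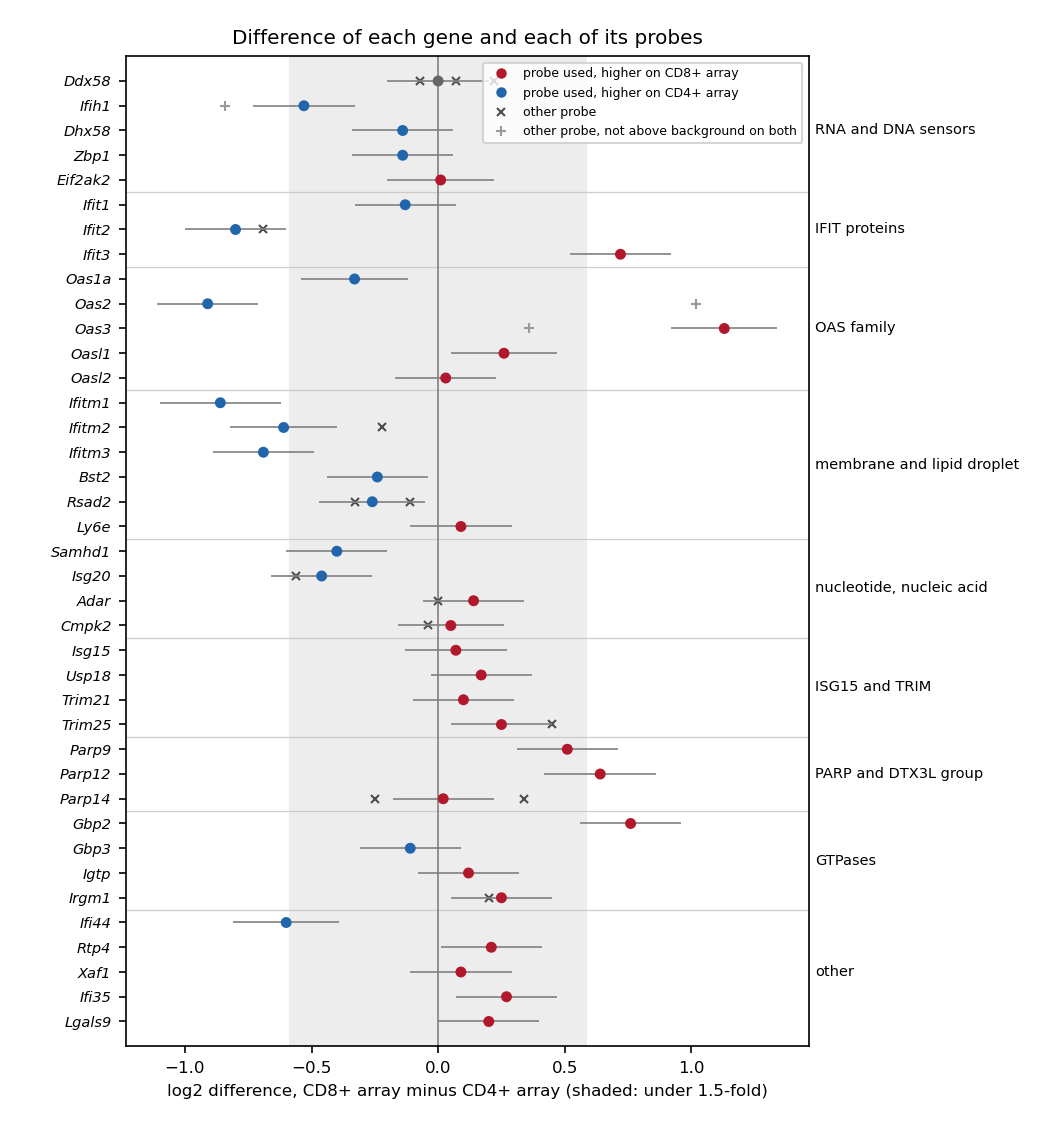
Log2 difference (CD8+ array minus CD4+ array) of each of the 39 genes, with bars for the scanner software's error and the other probes of a gene as crosses, and the range under 1.5-fold shaded. The 10 genes outside the shading include Ifit2 and Ifit3 on opposite sides and all 3 Ifitm genes on the CD4+ side.

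Several members lie in clusters in the genome. The gene table places Ifit2, Ifit3 and Ifit1 on chromosome 19, Oas2, Oas3 and Oas1a on chromosome 5, and Ifitm2, Ifitm1 and Ifitm3 on chromosome 7. Ifit2 and Ifit3, Oas2 and Oas3, and the Ifitm genes are next to each other. Genes that are not members lie between Ifit3 and Ifit1 and between Oas3 and Oas1a. Ifit2 (-0.80) and its next gene Ifit3 (0.72) differed in direction. The following genes, which are not members, were on the side of Ifit3, with Ifit1bl1 at 0.86 (signals of 1108 and 1779, and 0.58 at its other probe) and Ifit3b at 0.35. Oas2 (-0.91) and its next gene Oas3 (1.13) also lay on opposite sides, and the genes after them that were above background, Oas1e, Oas1c and Oas1f, had 0.29, -0.08 and 0.00. The 3 adjacent Ifitm genes lay on 1 side. Among the other neighbours, Rsad2 and Cmpk2 had -0.26 and 0.05, Oasl2 and Oasl1 had 0.03 and 0.26, and Gbp3, Gbp2b and Gbp2 had -0.11, 0.44 and 0.76. Probes for close relatives such as these may share signal.

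**Figure D4:**
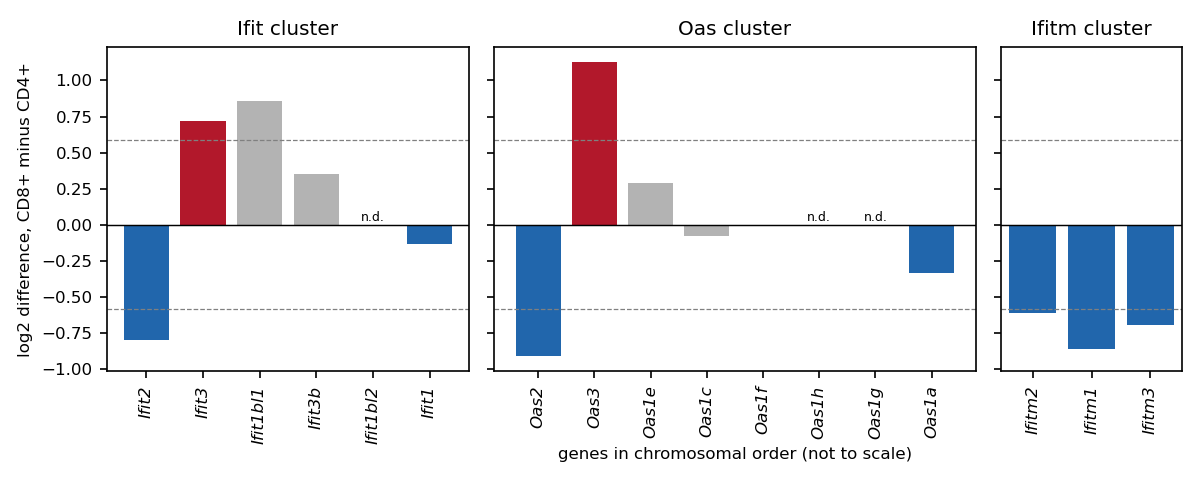
Log2 difference (CD8+ array minus CD4+ array) of the genes of 3 clusters in chromosomal order, not to scale, with members in colour, other genes in grey and n.d. for genes not above background. Adjacent members differ in direction in the Ifit and Oas clusters (Ifit2 at -0.80 and Ifit3 at 0.72, Oas2 at -0.91 and Oas3 at 1.13), and the Ifitm genes lie between -0.61 and -0.86.

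The receptors, signal transducers, regulatory factors and inhibitors of the pathway differed by less than 1.5-fold by the probes used. Over the 10 genes of the receptors and their JAK-STAT partners the median was 0.05 and none reached 1.5-fold. Ifngr2, the signalling chain of the interferon gamma receptor, had signals of 2560.1 in helper cells and 1596 in cytotoxic cells (difference -0.51, with -0.60 at its second probe), and the kinase gene Tyk2 had 883 and 1106 (difference 0.50). Stat2 had -0.18 and Irf9 0.04, and the second probe of Jak2 had -0.76 against -0.09 for the one used. The 6 interferon regulatory factors had a median of -0.05, none reached 1.5-fold by the probe used, and Irf7, which amplifies the type I response, had 0.43. Irf1 had 0.23 by the probe used and 0.59, past 1.5-fold, at its second probe. The 6 feedback inhibitors had a median of 0.03 with none at 1.5-fold, led by Ptpn6 (SHP-1) at 0.35 and Ptpn1 at -0.20, and Socs1 had 0.13.

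Among the ligands, Ifng had a processed signal of 809.8 in helper cells and 223 in cytotoxic cells, 3.21-fold higher in the helper cells (difference -1.68, with -1.74 at its second probe). Ifnb1, Ifna4, Ifne and Ifnk were not above background on either array. Ifna2 and Ifna5 were dim, with signals of 84.4 and 48.1 (difference -0.63) and of 44.1 and 27.6 (difference -0.50), and belong to a family of near-identical genes. Ifna2 lay between -0.68 and -0.18 over the alternatives run. Ifng lay between -1.73 and -1.5 over the alternatives.

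Of the sensing adaptors and receptors, 8 were above background on both arrays with a median of 0.08. Tlr7, a receptor for single-stranded RNA, had signals of 389 and 223 (difference -0.63, 1.54-fold higher on the CD4+ array). It lay between -0.67 and -0.49 over the alternatives, under 1.5-fold at the end nearest to 0. Tlr3, a receptor for double-stranded RNA, was above background on the CD8+ array alone, with 12.9 in helper cells and 47.9 in cytotoxic cells. It was 4.19-fold higher on the CD8+ array, with the higher of its own level and the dimmest detected level standing for the helper cells. Over the settings this estimate ran from 1.70-fold with normexp to 4.84-fold with quantile normalization. It was 1.84-fold from the series values and 2.34-fold with the mean over probes. Since the helper signal was not above background, the size is uncertain.

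Other interferon-inducible genes outside the 41 were measured for comparison. Of these, 23 were above background on both arrays, with a median of 0.19, against 0.02 over all genes. At least 1.5-fold higher were 3 on each array. Of all genes, 5.50% were so on the CD8+ array and 8.54% on the CD4+ array. Epsti1, an epithelial-stromal interaction protein induced by interferon, had 4131 in helper cells and 11360.3 in cytotoxic cells (difference 1.64, 3.11-fold), with 1.79 at its second probe, a larger difference than that of any of the 39 genes. Slfn5, a schlafen family member, had 117 and 50.9 (difference -1.03, 2.04-fold), and lay between -1.07 and -0.34 over the alternatives. Tgtp1, a T cell GTPase of the immunity-related family with a near-identical copy, had 0.72, with 0.79 at its second probe. Ifi27l2a had -0.62, with -1.16, past 2-fold, at its second probe. Ifi30, a lysosomal reductase of antigen-presenting cells, had -0.69. All 3 kept their direction in every setting run. Tgtp1 lay between 0.6 and 0.87, past 1.5-fold throughout. Ifi27l2a lay between -0.89 and -0.47 and Ifi30 between -0.74 and -0.55, under 1.5-fold at the ends nearest to 0.

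**Figure D5:**
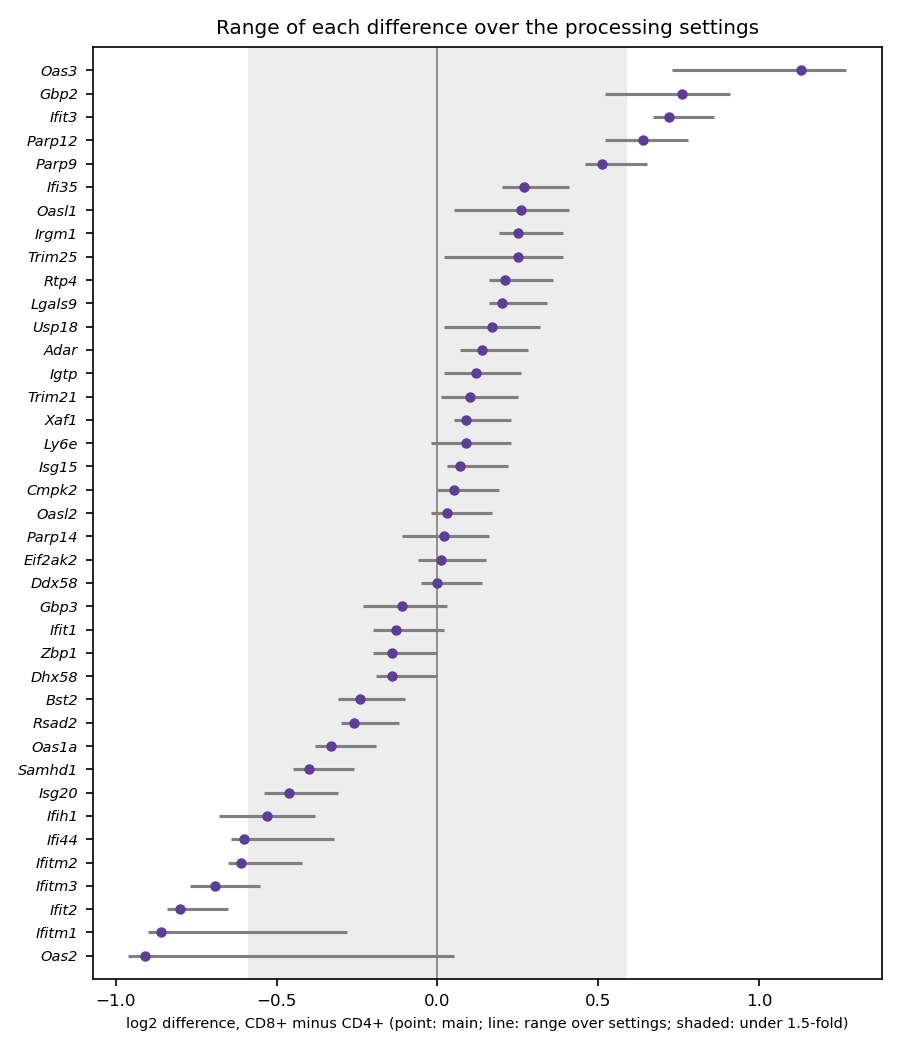
Log2 difference (CD8+ array minus CD4+ array) of each of the 39 genes in the reported processing (points) and its range over the alternatives run (lines), sorted by value, with the range under 1.5-fold shaded. Ifit2, Ifit3 and Oas3 stay outside the shading throughout, and Oas2 has the widest range, from -0.96 to 0.05.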

How the data were processed

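The scanner files deposited by the authors hold linear Cy3 intensity, and the processed signal in them is that intensity after background subtraction and detrending by Feature Extraction 10.1.1.1, per the file headers (the submitters' processing notes name version 9.1). The authors' deposited value table holds the median pixel intensity of the same spots (45018 of 45018 equal on each array), neither subtracted nor centred. Here processed signals were put on a log2 scale and centred, per array, on the 75th percentile of the non-control probes (signals of 508 and 449.9). Probes were named by unversioned accession in a RefSeq gene table of GRCm38.p6, used for names and gene order, and 24844 of 41174 probes (60.3%) matched 1 symbol. The file headers name another build, and the coordinates of promoters are those of the RefSeq table.

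A gene took its brightest probe among those well above background on both arrays. Genes were called apart at 1.5-fold and 2-fold; with 1 array per cell type there is no p-value, and precision is limited by the number of arrays. All 39 measured members were described, and signals were given for those 1.5-fold apart and for the largest difference and the one nearest 0 in each role group; of the pathway lists, the 2 largest differences per list and those past 2-fold were named, and further genes, such as the signal transducers, were added after their values were seen. The values of a few genes in these lists are not reported here. The members and lists were chosen with earlier results of these data known. Alternatives covered background correction, scaling, normalization, the series values, the filters and the choice of probe. The software was limma 3.58.1 under R 4.3.3, and pandas 2.3.3 with numpy 2.4.6 under Python 3.11.15, and the gene summary was tested on simulated data.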

Additional observations from a re-analysis of the deposited data

How the results depend on the processing

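The median difference of the 39 genes lay between -0.02 and 0.17 over 12 alternatives (1, the mean over probes above background on both arrays, chosen after seeing the data), and 9 of the 10 genes past 1.5-fold kept their direction in all. Oas2 turned to 0.05 with the mean over all its probes, 1 of which was not above background on either array, and kept -0.91 without that probe. At least 1.5-fold higher on the CD8+ array were 2 genes with normexp and 2 with the series values, in place of 4, and the shares of all genes were 3.50% and 3.94%, in place of 5.50%. On the CD4+ array 3 genes were with scaling to the median, in place of 6, which moved the median of all genes to 0.17. The number there was 4 with normexp, the series values, quantile and loess normalization. The shares of all genes were then 5.01%, 5.75%, 7.45% and 7.84%, in place of 8.54%. With the mean over all probes and over probes above background on both arrays the number was 5, and the shares were 8.31% and 8.15%. No member was 2-fold apart with normexp, with the series values or with the mean over probes (0 in each). The share of all genes 2-fold apart was not computed for these settings, so these counts have no background beside them. Scaling to the median gave 5 genes on the CD8+ array, a split of 5 to 3, and 9.17% of all genes were then higher there and 6.31% on the CD4+ array, in place of 5.50% and 8.54%. The cause of these changes was not tested, apart from the Oas2 probe. Of 468 values over the members, 10 moved by more than the technical spread and 1 reversed. These 468 include the values of settings that could not change a member. The planned normexp used median signals, since the scanner files hold no mean signal. Dropping the filter on dim probes, using brighter probes alone, leaving out saturated probes and keeping outlier spots each returned the reported value for every member. All measured members were above background on both arrays, with no saturated probe and no outlier spot. The filter, saturation and outlier settings therefore could not change a member and say nothing about stability. No library could be left out, and no paired analysis was possible because each group has 1 array.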
